A study of Mus musculus with 4 samples.

Results

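The cytosolic ribosomal protein genes were taken from RNA-seq of mouse liver myeloid cells with and without PD-1 deletion. Members were all rows annotated as protein-coding whose symbol began with Rpl or Rps followed by a digit, plus Rpsa, Rplp0, Rplp1 and Rplp2, without the Rps6k kinases and without names that hold -ps. The rule took 85 of the 24706 genes in the files, 51 with large-subunit names (Rpl) and 34 with small-subunit names (Rps). It also took Rps19bp1, a binding partner of RPS19 and not a ribosomal protein, and 7 paralogs or retrogenes such as Rps27l. The series holds 4 libraries that the labels call myeloid cells, 2 of genotype wt and 2 of genotype cko. The wt group corresponds to PD-1f/f mice, in which LoxP sites flank an exon of Pdcd1 on both alleles, although the methods call the controls wild-type. The cko group corresponds to PD-1f/f; LysM-Cre animals. There Cre is made in myeloid cells from the lysozyme locus Lyz2, so both groups would carry the floxed allele. The study describes CD11b+ cells sorted from the liver in its results and RNA of whole livers in its methods, and gives the age as postnatal day 3 and postnatal day 2 respectively. Nothing says that the libraries of a group came from separate animals, so every p-value measures only the spread between these libraries.

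Each cytosolic ribosome holds one copy of almost every ribosomal protein, with the RPL proteins in the large subunit that joins amino acids and the RPS proteins in the small subunit that reads the mRNA. Most of their mRNAs start with a cytosine and a run of pyrimidines, the 5′ terminal oligopyrimidine (TOP) motif, through which the kinase mTORC1 and the RNA-binding protein LARP1 control their translation as a group. In blood formation the supply of ribosomal proteins is known to matter, since loss of one copy of genes such as RPS19 causes Diamond-Blackfan anaemia, a failure of red cell production. Mammalian genomes also carry many processed pseudogenes of these genes, DNA copies of their mRNAs, some of them nearly identical to the parent.

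Library totals worked out from the values lay between 17691505 and 22212407 counted reads. Pdcd1, the targeted gene, read 28.5 and 34.7 FPKM (reads divided by exonic length and by the counted total of the library) in wt and 17.1 and 21.4 in cko (log2 fold change -0.69, SE 0.19, limma adjusted p = 0.216). Lyz2, the gene at the Cre locus, read 31306 and 32147 FPKM in wt and 10422 and 8127 in cko. The 10 highest genes, led by the neutrophil genes Ngp, S100a9, Lyz2 and S100a8, held 46.2% and 42.0% of all FPKM in wt and 32.8% and 29.1% in cko. Of 14 late neutrophil markers, 11 were lower in cko, 6 with an unadjusted p under 0.05, 2 of the 3 higher ones also passed that p, and their summed level was 161670 and 137880 FPKM in wt and 111490 and 92246 in cko. Of 19 erythroid markers, 18 were lower, 10 with an unadjusted p under 0.05, with sums of 2483 to 3934 FPKM in wt and 1539 to 1620 in cko. Myeloid markers had 16 rows, of which 14 were tested and 10 of these had a higher mean in cko. A higher or lower mean in cko is, here and below, that of log2(FPKM + 1). At an unadjusted p under 0.05, 3 were higher and 1 lower. The summed level of the rows, which include Lyz2, was 32381 and 33342 FPKM in wt and 11858 and 9702 in cko. Among all genes tested, 60.4% had a higher mean in cko, with 11.4% higher and 4.95% lower at that p. Of 13 hepatocyte markers tested, 12 were lower. The sums over all 22 hepatocyte rows, tested or not, were 98.7 and 171 FPKM in wt and 74.6 and 88.5 in cko. Of 9 B cell markers 9 were lower and of 7 T and NK cell markers 5, while 5 of 7 early neutrophil markers were higher. The Y-linked genes Eif2s3y and Ddx3y read 16.2 and 24.9 FPKM in wt 2 and at most 0.011 FPKM elsewhere, and Xist read 0.012 FPKM in wt 2 and 4.91 to 7.98 elsewhere. In bulk samples, fewer cells of a type and less RNA per cell cannot be told apart. The part of cell makeup and of sex in the results that follow was not tested.

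The ribosomal protein genes spread over a wide range of levels. Their mean over the 4 libraries ran from 0.017 to 638.6 FPKM, with a median of 14.55 FPKM. Of the 85 genes, 14 read 100 FPKM or more, 40 read 10 to 100, 23 read 1 to 10, and 8 fell under the minimum mean of 1 FPKM used for testing. The 5 highest genes held 43.84% of the summed level of all 85. The highest was Rplp0, whose protein anchors the stalk that recruits elongation factors, at 457, 528, 844 and 725 FPKM in wt 1, wt 2, cko 1 and cko 2. Rpl4, which lines the exit tunnel, followed at 566, 531, 691 and 717 FPKM. Rps3a1, a small-subunit protein near the mRNA exit, read 608, 408, 292 and 504 FPKM. Rplp0 and Rpl4 were higher in both cko libraries than in both wt libraries, whereas the groups of Rps3a1 overlapped.

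Rps15, by contrast, read 1.501, 1.349, 2.456 and 3.499 FPKM, although its protein sits once in each small subunit. The level of a row is the count assigned to it and does not measure the supply of the protein. Why Rps15 read low was not tested. Of the exonic 50-base stretches of a ribosomal protein gene, a median of 76.46% occurred in no other GENCODE M21 gene, with a range of 8.923% to 100%, against a median of 99.43% for 9077 other protein-coding genes tested. A 100-base stretch was shared with another gene in 78 of the 85, and exons of 39 overlapped those of another gene on either strand. Small RNA genes were counted, so that the overlap was 3.23% of exonic bases for Rps13, with Snord14a only, and 66.2% for Rpl35. The share of other genes with such an overlap is not given. Across the 85 genes, the mean level and the unique share had a Spearman correlation of -0.20, and the level and exonic length one of 0.074. These are descriptions across genes, which are not independent replicates. How reads with more than 1 match were counted, and whether strand was used, is not given in the sources used here.

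**Figure D1:**
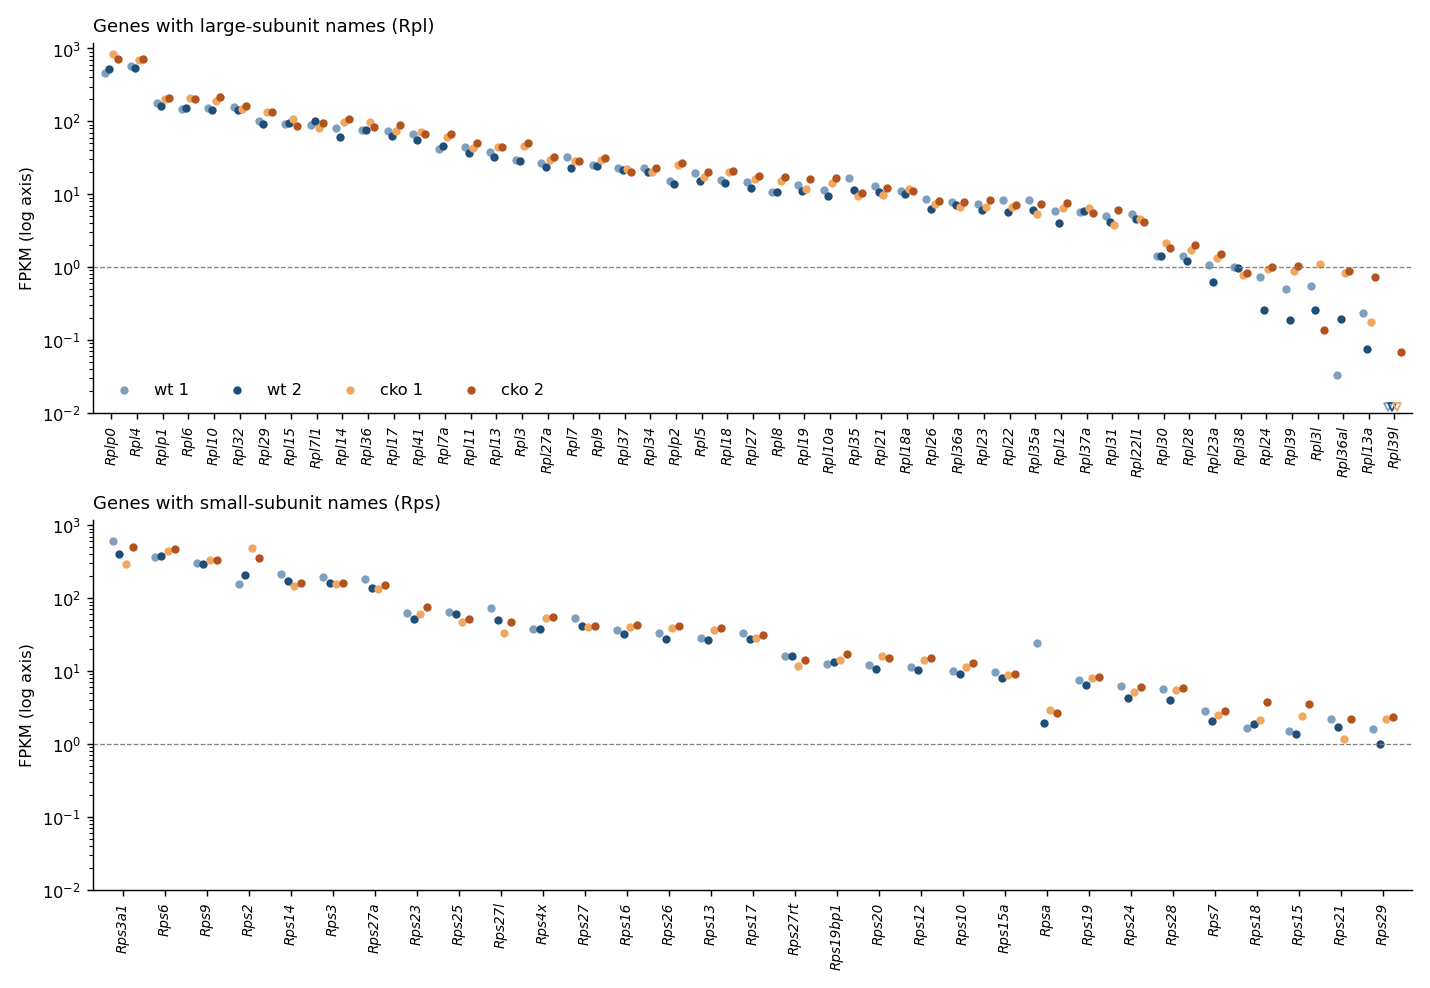
Level of 82 of the 85 ribosomal protein genes in FPKM (log axis) in the 4 libraries, sorted by mean within Rpl and Rps names. The dashed line is the minimum mean of 1 FPKM for testing and open triangles mark values of 0. Means run from 0.017 to 638.6 FPKM and single values from 0 to 844 FPKM, and 1 wt library of Rpsa stands far above its other 3 values.

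The first comparison asked whether the ribosomal protein genes differed between cko and wt. No ribosomal protein gene passed the threshold of the study's methods, a log2 fold change of at least 1 in size and an adjusted p under 0.05. This was limma on log2(FPKM + 1) over 10779 genes, of which 0% passed. By the other threshold in the study's results, a log2 fold change above 1 in size and an unadjusted p under 0.01, Rps2 passed as higher, and no ribosomal protein gene as lower. Of all genes, 1.88% passed as higher and 0.408% as lower. At an unadjusted p under 0.05, 18 of the 77 tested (23.4%) were higher in cko, against 11.4% of all genes tested, and 0 were lower, against 4.95%. The smallest adjusted p of any ribosomal protein gene in this fit was 0.199. The direction of these calls depended on the scaling. With median-of-ratios factors 11 were higher and 4 lower (all genes 8.3% and 7.25%), and after quantile normalization 7 and 5 (7.24% and 8.03%). Without the 10 highest genes they were 12 and 4 (8.58% and 6.87%). With voom on recovered reads, 0 of 70 ribosomal protein genes passed the methods threshold, against 0.0159% of 12553 genes (2). At an unadjusted p under 0.05, 14 were higher in that fit and 1 lower, against 10.8% and 4.05% of all genes. Their smallest adjusted p there was 0.146, and their median was 0.19 against 0.13 for all genes. With 2 against 2 libraries, the smallest two-sided p that exact permutation allows for 1 gene is 0.33.

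By sign of the log2 fold change, 58 of 77 ribosomal protein genes (75.3%) were higher in cko, against 60.4% of all genes. Both cko libraries lay above both wt libraries for 38 (49.4%, all genes 33.6%) and below for 6 (7.79%, all genes 18%). The median log2 fold change was 0.21, against 0.09 for all genes. For the 14 tested members with at least 90% unique 50-base stretches, a subset chosen after seeing the data, it was 0.056, below that of all genes. The unique share is taken over all annotated transcripts of a gene, so that these members can still share sequence with others. Rpl35a shared a 100-base stretch with 12 other genes and Rps24 with 6, while Rpl22 shared it with 0. Large-subunit names were higher in 37 of 44, with a median of 0.23, and small-subunit names in 21 of 33, with a median of 0.17. The difference between the subunits was not tested. The split between higher and lower depended on the scaling. It was 48 to 29 with median-of-ratios factors (51.4% of all genes higher) and 44 to 33 after quantile normalization (47.2%). Once the 10 highest genes were removed and the rest scaled to 1 sum, it was 49 to 28 (52%). With each library scaled to 1 sum, it was 74 to 9 of 83 (76.1% of all genes higher). With that same kind of scaling after erythroid and hepatocyte genes were removed, it was 69 to 8 (77.5%). Those last settings moved the median of all genes to 0.30 and 0.27. Relative to the median of all genes, the median of the ribosomal protein genes stayed 0.11 to 0.13 higher under these 5 scalings.

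The libraries of a group differed among themselves by about as much. Set against the wt mean, the median ribosomal protein gene stood at 0.09 in wt 1, -0.09 in wt 2, 0.16 in cko 1 and 0.29 in cko 2 (log2 of FPKM + 1). The gap between wt 1 and cko 1 was thus smaller than that between wt 1 and wt 2. Within wt, 64 of 77 (83.1%) were higher in wt 1 than in wt 2, against 45.7% of all genes tested. Within cko, 63 of 77 (81.8%) were higher in cko 2 than in cko 1, against 51.2%. From wt 1 to cko 1, 41 of 77 (53.2%) were higher, against 60.2%. The genes therefore moved together between libraries of 1 genotype as well. Without wt 2, the library with Y-linked transcripts, 47 of 77 were higher in cko and their median of 0.10 was no longer above the 0.11 of all genes, and without wt 1 the median was 0.31.

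**Figure D2:**
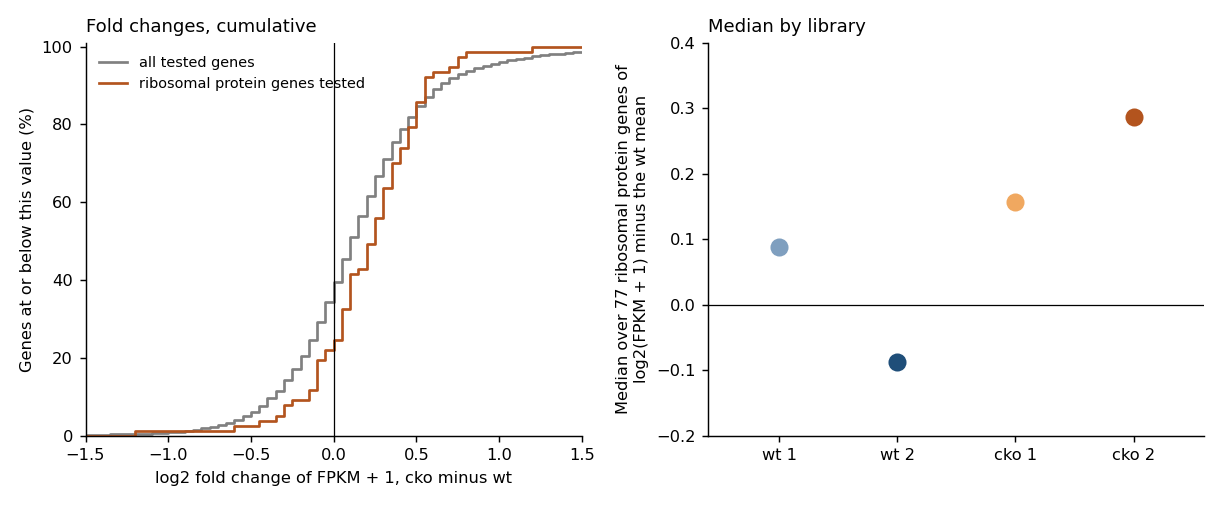
Left, cumulative share (%) of the 77 ribosomal protein genes and of all 10779 genes tested at or below each log2 fold change, cko minus wt. Right, median over the 77 genes of log2(FPKM + 1) minus the wt mean in each library, which is 0.09, -0.09, 0.16 and 0.29 from left to right, so that wt 1 and cko 1 lie close together.

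Some genes stood out from this common movement. Rps2, whose protein lines the channel where mRNA enters the small subunit, read 155 and 211 FPKM in wt and 482 and 359 in cko. Both cko libraries were above both wt libraries, with a log2 fold change of 1.20 (SE 0.22, limma adjusted p = 0.199). It lies on chromosome 17 from 24718116 to 24721929 on the plus strand (positions of the files, the same as GENCODE M21 on GRCm38). It was the only tested ribosomal protein gene with a log2 fold change above 1. Leaving out each library in turn gave 0.98 to 1.42.

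The acidic stalk of the large subunit, on which elongation factors land, is built of RPLP0, RPLP1 and RPLP2 with RPL12 at its base. All 4 genes were higher in both cko libraries than in both wt libraries (all genes 33.6%), 2 of them with an unadjusted p under 0.05 (all genes 11.4% higher), and the median log2 fold change was 0.56. Rplp2 (chromosome 7, 141447370 to 141451585, plus strand) read 15.4 and 14.0 FPKM in wt and 25.3 and 26.6 in cko. Its log2 fold change was 0.78 (SE 0.15, adjusted p = 0.199), and its wt and cko pairs were each close together. Rplp0 (chromosome 5, 115559467 to 115563727, plus strand) had a log2 fold change of 0.67 (SE 0.16, adjusted p = 0.212). Rplp1 read 177 and 160 FPKM in wt and 201 and 208 in cko, a log2 fold change of 0.28 (SE 0.13, adjusted p = 0.363). Rpl12 had the lowest level of the 4, at 5.83 and 4.05 FPKM in wt and 6.45 and 7.67 in cko.

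Rpl3, a protein next to the peptidyl transferase centre, read 29.2 and 28.3 FPKM in wt and 45.2 and 49.9 in cko, and its log2 fold change of 0.70 (SE 0.14, adjusted p = 0.199) did not rest on 1 library. Rps15, a protein of the small-subunit head, had a log2 fold change of 0.70 (SE 0.24, adjusted p = 0.257), which understates its change because its level was low. Only 21 and 16 reads in wt and 29 and 39 in cko stood behind it. Other genes with an unadjusted p under 0.05 were Rpl8, at 10.6 FPKM in both wt libraries and 15.4 and 17.2 in cko, and X-linked Rps4x, at 37.7 and 38.1 in wt and 53.9 and 55.3 in cko. Rpl10, which is added last to the large subunit and is also X-linked, read 151 and 143 FPKM in wt and 189 and 219 in cko. Rps6, the substrate of S6 kinase, read 364 and 379 FPKM in wt and 444 and 473 in cko. Its groups did not overlap, but its unadjusted p was 0.063.

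**Figure D3:**
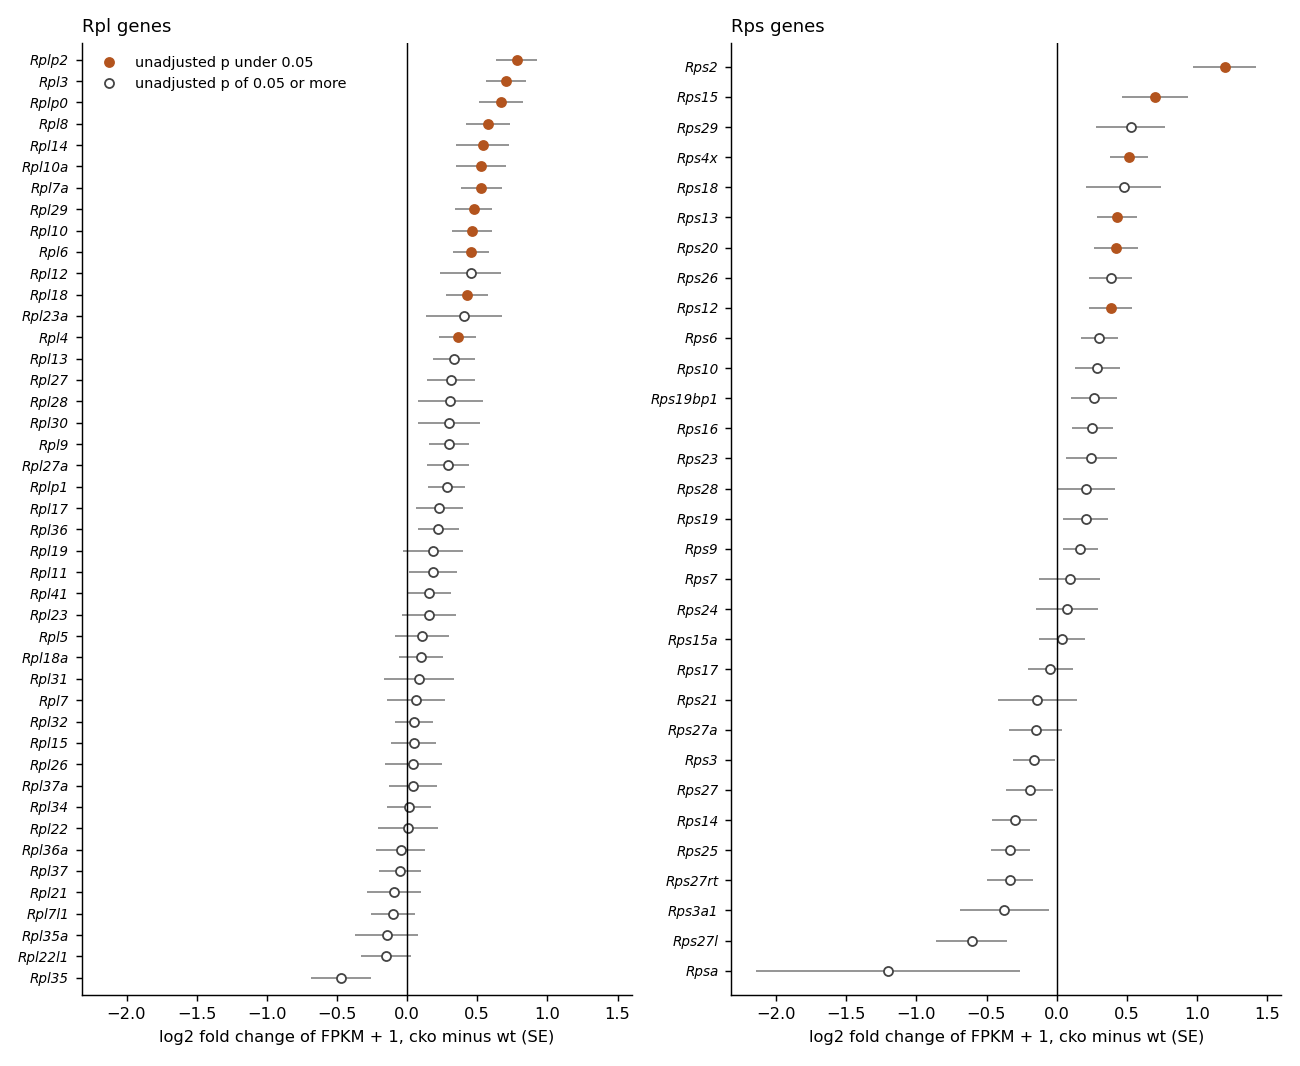
Log2 fold change of FPKM + 1 (cko minus wt, points) with its standard error (lines) for the 44 Rpl and 31 of the 33 Rps genes tested. Filled points have an unadjusted p under 0.05, and all 18 of them lie to the right of 0. No adjusted p was under 0.05.

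At the other end, 19 of the 77 tested genes had a log2 fold change below 0, none of them with an unadjusted p under 0.05. Under the 3 scalings named above, however, 4 or 5 ribosomal protein genes were lower at that p. Rps27l, Rpl35 and Rps27rt were each time among them. Rps27l, the paralog of Rps27 known as a p53 target, read 73.2 and 50.9 FPKM in wt and 33.3 and 47.4 in cko. Its log2 fold change was -0.61 (SE 0.25, adjusted p = 0.315), and the nearer libraries of the groups were only 3.46 FPKM apart. Leaving out 1 library gave -0.35 to -0.86, and its unadjusted p passed 0.05 with median-of-ratios, quantile and 10-highest-removed scaling, with voom, among protein-coding genes only, and without wt 2 or cko 2. Rpl35, a protein at the mouth of the exit tunnel, read 16.8 and 11.6 FPKM in wt and 9.33 and 10.2 in cko, with 66.2% of its exonic bases shared with Wdr38 and Arpc5l. Its log2 fold change of -0.47 (SE 0.21, adjusted p = 0.345) ran from -0.22 to -0.72 with 1 library left out, and its unadjusted p passed 0.05 under the same 3 scalings and without wt 2. Rps25, a small-subunit protein known for its part in internal initiation, read 65.3 and 59.9 FPKM in wt and 47.4 and 51.8 in cko. Rps14, lost in the 5q- syndrome, read 213 and 172 FPKM in wt and 149 and 161 in cko. For these 4 genes both cko libraries were below both wt libraries.

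The 5S ribonucleoprotein, RPL5 and RPL11 with 5S rRNA, binds MDM2 and stabilises p53 when ribosome assembly fails. Rpl5 read 19.74 and 15.003 FPKM in wt and 17.1 and 20.2 in cko, and Rpl11 read 44.9 and 36.7 in wt and 43.0 and 49.8 in cko. The groups overlapped for both genes. Among 19 tested genes linked to Diamond-Blackfan anaemia, 15 had a higher and 4 a lower mean in cko (all genes 60.4% higher). Their median log2 fold change was 0.093, beside 0.092 for all genes. Rpl18 alone had an unadjusted p under 0.05 (all genes 11.4% higher and 4.95% lower). It read 15.8 and 14.2 FPKM in wt and 20.15 and 21.01 in cko. Rps19, the gene most often mutated in that disease, read 7.43 and 6.52 FPKM in wt and 8.10 and 8.26 in cko (log2 fold change 0.21, SE 0.16, adjusted p = 0.550).

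Several genes could not be read apart from near-identical rows. Rpsa, the small-subunit protein also known as the laminin receptor, read 24.1 FPKM in wt 1 and 1.96, 2.88 and 2.62 FPKM in wt 2, cko 1 and cko 2. Its log2 fold change of -1.20 (SE 0.94, adjusted p = 0.544), the lowest of all, rested on wt 1 and was 0.34 without it. The processed pseudogene Rpsa-ps10 (chromosome 3, 150072658 to 150073542, minus strand) read 45.5, 83.7, 132 and 132 FPKM, and 74.6% of its 50-base stretches also occur in Rpsa transcripts. Summed as RPM (reads scaled to the library total, with no length), both rows gave 117, 80.3, 126 and 125. In that sum both cko libraries were above both wt libraries, by a log2 ratio of 0.35. Rpsa held 65.5% of the sum in wt 1 and 6.66% to 7.74% in the other 3 libraries.

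Rps3a1, like Rpsa, was highest in the library where a processed pseudogene row was lowest. That row is Rps3a2 on chromosome 14 (88123017 to 88123808, minus strand), singled out after its values were seen. How reads were split between such rows was not tested. Rps3a2 read 6.14, 145, 298 and 182 FPKM, so that it was highest in cko 1, where Rps3a1 was lowest, and lowest in wt 1, where Rps3a1 was highest. Of the 50-base stretches of Rps3a1, 61.4% occur in Rps3a2. Their sum was 599, 513, 522 and 637 RPM, and its groups overlapped, with a log2 ratio of 0.06. Rpl6, an outer protein of the large subunit, and its pseudogene Rpl6l moved in the same direction. Rpl6 read 146 and 153 FPKM in wt and 208 and 202 in cko, Rpl6l 35.8 and 39.8 in wt and 54.5 and 54.1 in cko, and Rpl6 held 93.1% to 93.6% of their sum in every library.

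**Figure D4:**
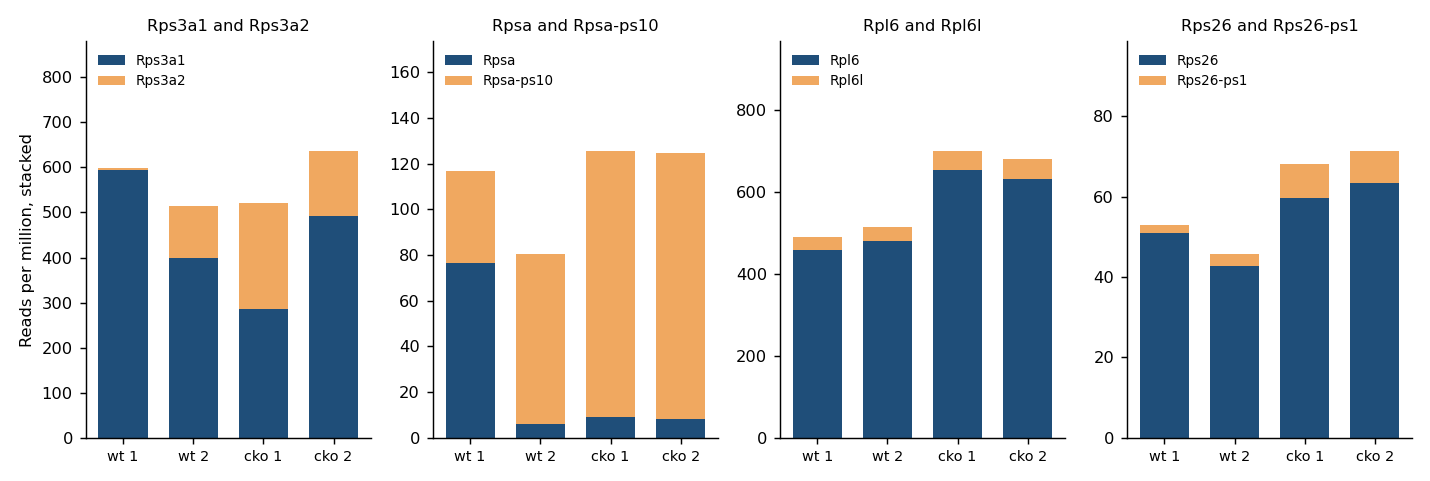
RPM, reads scaled to the library total (stacked bars), of 4 ribosomal protein genes (dark) and a near-identical pseudogene row (light) in each library. The Rpsa row holds 65.5% of its sum in wt 1 and under 8% elsewhere, and Rps3a1 holds 99.2% in wt 1 and 54.7% in cko 1, while the sums vary less.

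The files hold 135 rows with -ps in a ribosomal protein name, of which 51 were tested. Of these 36 had a higher and 15 a lower mean in cko (all genes 60.4% higher), and 10 and 1 had an unadjusted p under 0.05 (all genes 11.4% and 4.95%). Their median log2 fold change was 0.32, against 0.09 for all genes. Rps26-ps1 read 4.31 and 6.63 FPKM in wt and 19.0 and 18.1 in cko, with an adjusted p of 0.183, while its parent Rps26 read 33.0 and 27.7 in wt and 38.6 and 41.0 in cko. The copy Rps2-ps13 read 1.84 and 2.59 FPKM in wt and 7.68 and 5.38 in cko, and 10.2% of its stretches are unique, so that its reads and those of Rps2 may be mixed. Rpl10-ps2 had the lowest fold change, through 0.613 FPKM in cko 2 against 8.52, 12.4 and 15.6 in the other libraries. For 38 ribosomal protein genes with such rows, the sum of parent and copies was higher in cko for 30 (all genes, as single rows, 60.4%). The groups were apart upwards for 21 of these sums (all genes 33.6%) and downwards for 1 (all genes 18%). The copies held a median of 2.95% of the sum and at most 77.7%.

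The paralogs read as follows. Rpl7l1, a paralog of Rpl7 with a role in ribosome assembly, read 89.1 and 102 FPKM in wt and 81.5 and 96.4 in cko, above Rpl7 itself at 32.9 and 22.7 in wt and 28.4 and 28.7 in cko. Rpl22l1 read 5.32 and 4.57 FPKM in wt and 4.59 and 4.12 in cko, below Rpl22 at 8.27 and 5.71 in wt and 6.65 and 7.22 in cko. Rpl36a read 7.92 and 7.16 FPKM in wt and 6.64 and 7.92 in cko. In all 3 pairs the libraries of the groups overlapped for each tested gene. Rps27rt, a retrogene of Rps27 with 8.92% unique stretches, read 16.3 FPKM in both wt libraries and 11.6 and 14.1 in cko, while Rps27 read 52.8 and 41.4 in wt and 40.4 and 41.2 in cko. Rps4l, which the files annotate as a transcribed pseudogene and which is therefore no member, read 9.07 and 12.3 FPKM in wt and 11.3 and 8.99 in cko. Rps19bp1 read 12.5 and 13.1 FPKM in wt and 14.2 and 17.1 in cko.

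The 8 genes under the minimum included Rpl13a, Rpl24, Rpl38, Rpl39, Rpl36al, Rpl3l and Rpl39l. Rpl13a, which is also part of a complex that silences inflammatory mRNAs, had 11, 3, 7 and 27 reads in wt 1, wt 2, cko 1 and cko 2. Rpl38 had 12 and 10 reads in wt and 8 and 8 in cko, and Rpl39, an exit tunnel protein, had 16 and 5 in wt and 24 and 26 in cko. At such numbers counting error is a large part of each value. Rpl39l, known from the male germ line, had 0 reads in 3 libraries and 1 in cko 2. Rpl3l, the paralog of striated muscle, had 20 and 8 reads in wt and 34 and 4 in cko. Rpl36al had 1 and 5 reads in wt and 21 in each cko library.

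As a share of all FPKM, the 85 genes held 1.08% and 1.06% in wt and 1.45% and 1.54% in cko, a difference of 0.42 percentage points with the groups apart. Without the 10 highest genes the shares were 2.01% and 1.83% in wt and 2.16% in both cko libraries, a difference of 0.24 points. The gap between the nearest wt and cko libraries was then 0.148 points, less than the 0.174 points between the wt libraries. With the -ps rows summed in, the shares were 1.16% and 1.15% in wt and 1.58% and 1.67% in cko. No p is given for these scores over the members.

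**Figure D5:**
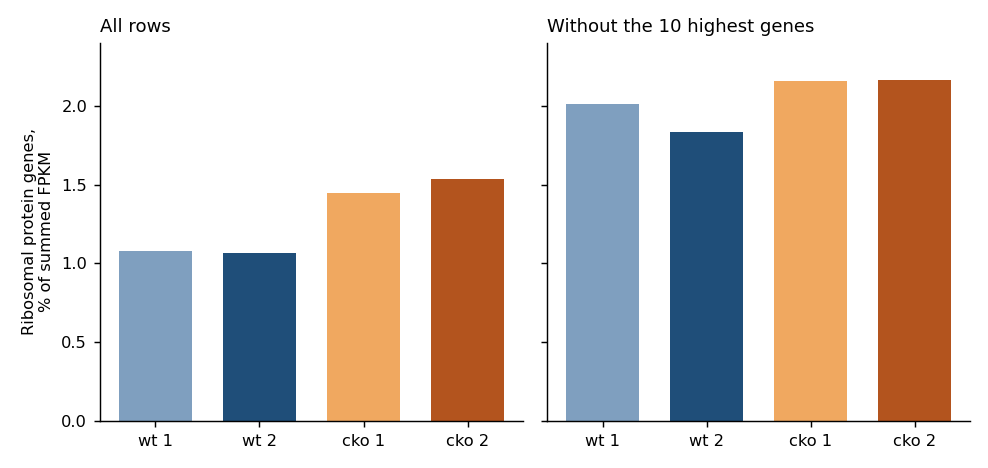
Percent of summed FPKM held by the 85 ribosomal protein genes in each library, over all rows (left) and after removal of the 10 genes with the highest mean (right). Bars start at 0 and show single libraries; the left panel separates the groups more widely than the right, where the cko bars stand at 2.16% and the wt bars at 2.01% and 1.83%.

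The starts of the genes were set beside the TOP motif, since members of a TOP class are known to be translated together. Promoters were found in the RefSeq table (GRCm38.p6) for 65 of the 85 genes, and the first listed start of each was used. A C followed by at least 4 further C or T lay exactly at the start in 13 (20%), against 2.155% of 12159 other protein-coding genes and 2.49% of all 27025 promoters. Within 5 bases of the start it was found in 29 (44.62%), against 19.65% and 18.46%. The motif was read on the coding strand only. The listed start is the annotation's and was not measured here, and a match is no measured TOP mRNA. For the 4 higher and 4 lower genes by fold change with an entry, 10 bases before to 20 bases from the start are shown, with the longest run of C and T that begins with C near the start in capitals.
Rps2, chr17:24720053-24720082, plus strand: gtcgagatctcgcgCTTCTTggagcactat
Rplp2, chr7:141447641-141447670, plus strand: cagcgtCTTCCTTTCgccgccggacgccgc
Rps15, chr10:80292421-80292450, plus strand: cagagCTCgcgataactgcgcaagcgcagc
Rplp0, chr5:115559457-115559486, plus strand: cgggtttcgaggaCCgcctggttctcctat
Rpsa, chr9:120127756-120127785, plus strand: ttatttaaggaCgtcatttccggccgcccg
Rps27l, chr9:66946076-66946105, plus strand: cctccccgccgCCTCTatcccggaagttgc
Rpl35, chr2:39005112-39005141, minus strand: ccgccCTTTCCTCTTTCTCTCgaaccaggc
Rps3a1, chr3:86142649-86142678, minus strand: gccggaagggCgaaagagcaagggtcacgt
Long runs stood at Rplp2, which was higher in cko, and at Rpl35, which was lower, so that the run did not separate the directions among these 8. The listed starts of Rps2, Rplp2, Rpsa, Rpl35 and Rps3a1 lie inside the annotated spans of these genes. Those of Rplp0 and Rps27l lie at the edge of the span, and that of Rps15 lies outside it.

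Other genes of translation were read from lists. Beside each list stand the values of all genes tested, of which 60.4% had a higher mean in cko, 11.4% were higher and 4.95% lower at an unadjusted p under 0.05, and the median was 0.09. Of 18 genes of translation whose mRNAs carry TOP motifs, 17 had a higher mean in cko and 1 a lower one, 4 and 0 with an unadjusted p under 0.05, and the median log2 fold change was 0.31. Eef1a1, which brings aminoacyl-tRNA to the ribosome, read 1060 and 1121 FPKM in wt and 1752 and 1718 in cko (log2 fold change 0.67, SE 0.13, adjusted p = 0.199). Eef1g, of the exchange factor of EEF1A, read 6.39 and 6.54 FPKM in wt and 8.74 and 12.5 in cko. Naca, of the nascent chain complex, read 34.9 and 30.8 FPKM in wt and 31.7 and 36.6 in cko. Eif3e was the exception, at 136 and 109 FPKM in wt and 87.9 and 111 in cko. Fau, which encodes RPS30 in a fusion, read 112 and 104 FPKM in wt and 142 and 136 in cko, and Rack1, on the head of the small subunit, read 27.4 and 26.8 in wt and 33.5 and 35.1 in cko.

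Of 48 tested ribosome biogenesis factors, 42 had a higher and 6 a lower mean in cko, 10 and 0 with an unadjusted p under 0.05 (all genes 11.4% and 4.95%), and the median was 0.29. Rrs1, which loads the 5S ribonucleoprotein onto the nascent large subunit, read 9.43 and 8.46 FPKM in wt and 16.02 and 21.45 in cko (log2 fold change 0.98, SE 0.19, adjusted p = 0.199). Noc4l, a nucleolar factor of small-subunit assembly, read 6.49 and 6.47 FPKM in wt and 9.89 and 14.0 in cko. Nmd3, the export adaptor of the large subunit, read 7.59 and 5.47 FPKM in wt and 3.80 and 6.23 in cko, and Polr1a, the large subunit of RNA polymerase I, read 4.02 and 5.36 in wt and 3.87 and 3.17 in cko.

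Of 17 genes of the mTORC1 and S6 kinase axis, 13 were higher and 4 lower by mean, 4 and 1 with an unadjusted p under 0.05 (all genes 11.4% and 4.95%), and the median was 0.30. Larp1, the TOP-binding protein, read 2.986 and 3.695 FPKM in wt and 5.67 and 7.01 in cko, and Mlst8, a subunit of mTORC1, read 22.9 and 23.5 in wt and 18.9 and 13.6 in cko. The kinase gene Rps6ka1 read 115 and 113 FPKM in wt and 138 and 82.0 in cko. Myc, a transcriptional activator of ribosomal protein genes, read 10.2 and 5.83 FPKM in wt and 7.29 and 24.9 in cko, so that cko 2 stood apart. Of 12 tested p53 targets, 9 were higher and 3 lower by mean, 2 and 1 with an unadjusted p under 0.05 (all genes 11.4% and 4.95%). Plk3, a stress-induced kinase, read 3.13 and 2.46 FPKM in wt and 4.55 and 15.2 in cko, and Trp53inp1 read 11.7 and 10.8 in wt and 7.18 and 5.57 in cko. The death gene Pmaip1 read 14.1 and 10.7 FPKM in wt and 14.6 and 49.2 in cko, and the cyclin gene Ccng1 26.4 and 20.2 in wt and 19.0 and 18.9 in cko. Plk3, Pmaip1 and Myc thus shared a high value in cko 2.

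The 70 tested mitochondrial ribosomal protein genes, which build the separate ribosome of mitochondria, had a median log2 fold change of -0.07. Of these 25 had a higher and 45 a lower mean in cko, 0 and 2 with an unadjusted p under 0.05 (all genes 11.4% and 4.95%). The lowest was Mrps33, at 17.99 and 17.78 FPKM in wt and 11.5 and 12.2 in cko, followed by Mrps14 at 34.2 and 24.1 in wt and 18.9 and 22.2 in cko. The highest were Mrps2, at 2.84 and 5.08 FPKM in wt and 6.09 and 4.94 in cko, and Mrpl52, whose groups also overlapped. The summed level of all 77 mitochondrial ribosomal protein genes, tested or not, was 934 and 913 FPKM in wt and 848 and 864 in cko. That of all 85 cytosolic genes was 5318 and 4865 in wt and 5979 and 6202 in cko. The difference between both classes was not tested. No gene in any of these lists had an adjusted p under 0.05.

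Outside expression, the cytosolic ribosomal protein genes shared a feature that the rule did not use. Of the 85, 30 (35.29%) host 58 annotated small nucleolar RNA genes within their span, against 1.653% of 9077 other protein-coding genes tested. Small nucleolar RNAs guide modifications of ribosomal RNA and are cut from introns. Rpl4 holds 5 and Rpl13a holds 4, as annotated in GENCODE M21. Members lay on 19 chromosomes, with 14 on chromosome 7 and 4 on the X chromosome.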

How the data were processed

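RNA-seq libraries labelled wt (2) and cko (2) were compared. The authors deposited FPKM values per gene and library, called RPKM in their methods. The submitters' processing notes name Bowtie2 2.2.3, TopHat2 2.0.12 and HTSeq 0.6.0 and the mm9 build, but 92.61% of the deposited gene positions, and those of 75 of the 85 members, were identical to GENCODE M21 (GRCm38). Aligner settings are not given in the sources used here. Values of single-exon genes were whole multiples of 1 read (tolerance 0.05), which gave library totals and, with M21 exonic lengths, reads for 73 of the 85 members. The test was a moderated linear model, fitted by lmFit and trended eBayes of limma 3.58.1 (R 4.3.3). It was run on log2(FPKM + 1) for all genes averaging 1 FPKM or more, without covariates, with Benjamini-Hochberg adjustment over the genes tested. On this scale low genes' changes are understated. The fit was also run on simulated data with larger changes than those of the members, and no result here rests on that run.

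Members and lists were chosen with earlier results of these data known. Named genes were the 3 highest, the 5 highest and 5 lowest fold changes, members of known function, paralog pairs, members under the minimum, and the 2 highest and 2 lowest of the other translation lists, and cell type markers are given as counts; further members are named as examples. Rps3a2, Rpl6l and the parents' copies were added after their values were seen. Alternatives covered pseudocounts, filters, scalings, tests and libraries left out. Python 3.11.15 and, for plots, matplotlib 3.10.9 were used. Values of 3 members are not reported here by name and are not plotted singly.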

Additional observations from a re-analysis of the deposited data

How the results depend on the processing

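No ribosomal protein gene passed the methods threshold (adjusted p) under any alternative. Of the results threshold (unadjusted p under 0.01), Rps2 no longer passed after quantile normalization, without wt 1 and without cko 1, while Rplp2 passed with each library scaled to 1 sum and Rpsa, as lower, without wt 2. The number with an unadjusted p under 0.05 was 18 of 77, against 11.4% of all genes higher and 4.95% lower. It was 35 of 83 with each library scaled to 1 sum, and 34 with erythroid and hepatocyte genes removed before scaling to 1 sum. Under those scalings 76.1% and 77.5% of all genes had a higher mean in cko, against 60.4% without them. With the replicate block the number was 8. The share of all genes past that p is not given for these settings, so that these counts cannot be set against all genes. Across genes, the difference between wt 1 and wt 2 and that between cko 1 and cko 2 had a correlation of -0.16. The labels do not say whether the numbers pair the samples, and 1 correlation from 4 libraries cannot decide it. The median log2 fold change of 0.21 was 0.42 with 1 sum, 0.39 with erythroid and hepatocyte genes removed before such scaling, and 0.10 to 0.31 with 1 library left out. The number higher in cko was 47 to 65 and the number with the groups apart 57 to 64 with 1 library left out, against 58 and 44, and the latter rises because a lone library separates more easily. Restriction to the 14 tested members with at least 90% unique 50-base stretches, chosen after seeing the data, left 2 with an unadjusted p under 0.05, 10 higher, 6 apart and a median of 0.056. These members can still share sequence with other genes. The difference in the share of summed FPKM was 0.24 points without the 10 highest genes, 0.24 points with neutrophil markers removed as well (chosen after seeing the data), 0.47 with the -ps rows and 0.38 to 0.46 with 1 library left out. Beyond these constructions, the cause was not tested.

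Of 488 values for 26 named genes, 408 kept direction and side of the threshold at an unadjusted p of 0.05, 24 no longer passed, 28 newly passed and 28 reversed, for 9 genes whose main values were mostly near 0. Rpl22 (0.01) gave -0.076 with median-of-ratios factors, -0.11 after quantile normalization, -0.070 without the 10 highest genes, -0.070 without neutrophil markers too, -0.0034 with voom, and -0.23 to 0.24 with 1 library left out. Rpl7 (0.06) gave -0.031, -0.014, -0.025 and -0.025 under the first 4 of these, and -0.20 to 0.32 with 1 library left out. With each library scaled to 1 sum, and with erythroid and hepatocyte genes removed before such scaling, Rpl22l1 gave 0.032 and 0.025, Rpl36a 0.15 and 0.14, Rpl7l1 0.11 and 0.11, and Rps27 0.019 and 0.015. Rpl36a gave 0.035 with the length trend removed. With 1 library left out, Rpl36a ran from -0.16 to 0.065, Rpl7l1 from -0.22 to 0.018, Rpl5 from -0.083 to 0.29, Rps3a1 from -0.77 to 0.019 (without cko 1) and Rpsa from -2.75 to 0.34 (without wt 1). At 17691505 to 22212407 reads per library, members under 1 FPKM rest on at most 34 reads.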
